A study of Mus musculus with 24 samples.

Results

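Adenosine is the end product of an extracellular cascade that starts from ATP. This account follows 6 genes of that cascade: the ectonucleotidases Entpd1 and Nt5e, the adenosine receptors Adora2a and Adora2b, and the clearance enzymes Ada and Adk. They were chosen by name for their textbook roles, with earlier results of these data known, and are 6 of the 23366 genes in the deposited expression tables. All 6 had enough reads to be tested at day 3 and at day 9.

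Entpd1 encodes CD39, which strips phosphates from extracellular ATP and ADP to leave AMP, and Nt5e encodes CD73, which turns that AMP into adenosine. Adora2a and Adora2b encode receptors coupled to stimulatory G proteins that raise cyclic AMP; Adora2b needs more adenosine than Adora2a to signal, and in T cells Adora2a is the best studied brake on activation. Ada deaminates adenosine to inosine, and Adk phosphorylates it back to AMP inside the cell.

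RNA was sequenced from cultured C57BL/6 mouse CD8+ T cells, sorted as naive cells and activated with plate-bound antibodies to CD3 and CD28. At day 3 the groups were cKO with 10 nM dexamethasone (Dex), cKO without it (Ctrl), WT with Dex and WT Ctrl, where cKO cells carried E8i-Cre with Nr3c1fl/fl and WT cells carried the floxed Nr3c1 alleles without Cre, so that both genotypes share the floxed gene and only the cKO cells have the Cre, which E8i drives in the CD8 lineage. At day 9 all cells were WT and had been through 3 days of stimulation, a rest of 3 days in 5 ng/ml IL2 and a second stimulation of 3 days, with Dex at 10 nM plus IL27 at 25 ng/ml (Dex+IL27), Dex alone, IL27 alone or neither (Ctrl) in both stimulations. Dexamethasone is a synthetic agonist of the glucocorticoid receptor encoded by Nr3c1, and IL27 is a cytokine that signals through STAT proteins. Each of the 8 groups held 3 libraries of 1000 sorted cells; age, sex and the number of animals are not given in the labels, so the spread behind the p-values is that among these libraries and may be technical.

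The depth ranged from 14221883 to 19018440 estimated counts per library. Nr3c1, the targeted gene, had 6.41 ± 1.55 CPM in cKO Dex and 20.2 ± 1.09 CPM in WT Dex, and 7.50 ± 0.605 CPM in cKO Ctrl and 16.6 ± 1.70 CPM in WT Ctrl (SD, n = 3 each). The remaining cKO reads come from gene-level counts, and the labels do not name the deleted exons. How complete the deletion was in the cKO cells was not tested. The 5 CD8 T cell markers summed to between 1159 and 1765 CPM. The 5 B cell markers summed to 6.38 to 20.9 CPM and the 3 CD4 T cell markers to 5.07 to 22.3 CPM. Among the B cell markers Cd79b had 6.26 to 20.8 CPM, Cd79a had at most 0.389 CPM, and Pax5 was at 0 in all 24 libraries. Among the CD4 T cell markers Zbtb7b reached 18.9 CPM, Cd40lg 13.6 CPM and Cd4 3.19 CPM. The 7 myeloid markers moved with the day 9 groups and summed to 23.5 to 26.2 CPM in Dex+IL27, 11.6 to 13.9 in Dex, 12.9 to 18.01 in IL27 and 3.03 to 4.46 in Ctrl. Cd68 and Itgam made up most of this in the treated groups, and Cd14 reached at most 1.09 CPM and was at 0 in 4 libraries, while Lyz2 and Lyz1 were at 0 in 22 of 24 libraries each and never above 0.106 CPM, Emr1 was at 0 in 19 and Csf1r at 0 in 12. Regulatory T cells also carry CD39 and CD73. At day 9 their 3 markers summed to 28.4 to 32.9 CPM in Dex+IL27 and 57.4 to 68.8 CPM in Dex. They summed to 41.9 to 45.7 CPM in IL27 and 54.3 to 58.2 CPM in Ctrl of that day. At day 3 the sums were 76.6 to 88.4 CPM in cKO Dex and 82.0 to 95.1 CPM in cKO Ctrl. They were 76.5 to 80.1 CPM in WT Dex and 70.2 to 81.5 CPM in WT Ctrl. Foxp3 had at most 8.57 CPM in any library, with group means of 4.21 to 7.38 CPM at day 3 and 0.019 to 0.520 CPM at day 9. Ikzf2 and Ikzf4 thus made up most of the day 9 sums. The share of counts taken by the ribosomal precursor Rn45s was 16.04% ± 0.31 in Dex+IL27, 14.6% ± 0.49 in Dex, 14.1% ± 0.41 in IL27 and 9.11% ± 0.15 in Ctrl of day 9 (SD, n = 3 each). At day 3 it was 12.5% ± 0.79 in cKO Dex, 12.8% ± 0.29 in cKO Ctrl, 12.4% ± 0.45 in WT Dex and 11.1% ± 0.57 in WT Ctrl, whose libraries were all below those of the other 3 groups. Its part in the results of either day was not tested.

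Upstream sequence was read for the members from RefSeq on GRCm38.p6, since several of them changed together with Dex. Windows of 250 bases before a start site were found for 5 of the 6 genes (7 windows); Adora2a is named only. Both windows of Entpd1 and those of Nt5e and Adora2b, the ectonucleotidases and the receptor with the larger Dex changes, are given 5′ to 3′ on the strand of the gene, with capitals marking GC boxes (GGGCGG on either strand, overlapping copies counted singly).
Entpd1, first start, chr19:40612116-40612365 (+): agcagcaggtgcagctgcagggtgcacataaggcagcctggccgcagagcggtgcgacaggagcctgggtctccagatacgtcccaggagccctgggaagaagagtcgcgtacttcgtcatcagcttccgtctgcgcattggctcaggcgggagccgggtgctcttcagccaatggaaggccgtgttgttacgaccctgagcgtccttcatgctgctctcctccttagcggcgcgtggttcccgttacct
Entpd1, second start, chr19:40659520-40659769 (+): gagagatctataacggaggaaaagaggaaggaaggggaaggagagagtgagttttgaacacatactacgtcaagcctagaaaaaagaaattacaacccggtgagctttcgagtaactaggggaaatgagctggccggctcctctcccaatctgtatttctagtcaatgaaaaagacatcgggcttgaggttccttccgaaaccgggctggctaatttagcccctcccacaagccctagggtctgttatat
Nt5e, chr9:88327359-88327608 (+): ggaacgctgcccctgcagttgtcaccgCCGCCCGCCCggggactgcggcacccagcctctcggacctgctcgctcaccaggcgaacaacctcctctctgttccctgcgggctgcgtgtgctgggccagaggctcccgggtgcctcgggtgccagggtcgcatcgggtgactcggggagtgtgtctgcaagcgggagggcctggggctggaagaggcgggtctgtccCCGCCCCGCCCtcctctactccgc
Adora2b, chr11:62248734-62248983 (+): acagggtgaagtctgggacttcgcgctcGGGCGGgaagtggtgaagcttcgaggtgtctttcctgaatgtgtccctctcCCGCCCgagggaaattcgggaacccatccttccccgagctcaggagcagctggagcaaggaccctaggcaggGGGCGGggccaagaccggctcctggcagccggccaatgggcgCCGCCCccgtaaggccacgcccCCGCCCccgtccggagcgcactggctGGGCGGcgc
The Nt5e window held 4 GC boxes and the Adora2b window 6, and neither Entpd1 window held one; 32.7% of 32851 mouse windows of this length hold at least 1. None of the 7 windows held the full glucocorticoid response element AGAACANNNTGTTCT (in 0.00913% of windows), its half-site TGTTCT (16.1%) or the cyclic AMP response element TGACGTCA (1.55%) on either strand. The full element is in only 3 of the 32851 windows, so its absence from 7 was nearly certain beforehand. For the half-site and the cyclic AMP element 7 windows are too few to read an absence. Binding of the receptor was not tested. The STAT element TTCNNNGAA (7.02%) was found in 1 of them, that of Ada.

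Compared per length, in FPKM, the order of the 6 genes differed between the groups. At day 3 Adk was the highest in every group, with 24.2 to 25.0 FPKM as group means, and Entpd1 the lowest, with 0.540 to 0.683 FPKM. In Dex+IL27 cells of day 9 Entpd1 led with 25.8 ± 2.07 FPKM, and in IL27 cells it led with 27.1 ± 1.21 FPKM. Adora2b led in Dex cells of day 9 with 32.7 ± 2.38 FPKM, whereas Adk led in Ctrl cells of day 9 with 35.1 ± 0.674 FPKM (SD, n = 3 each). From here on levels are CPM on TMM-scaled library sizes, which are comparable between libraries for 1 gene, changes are log2 fold changes ± SE, and a gene is said to have risen or fallen where the adjusted p of edgeR's quasi-likelihood test over all genes was under 0.05.

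**Figure D1:**
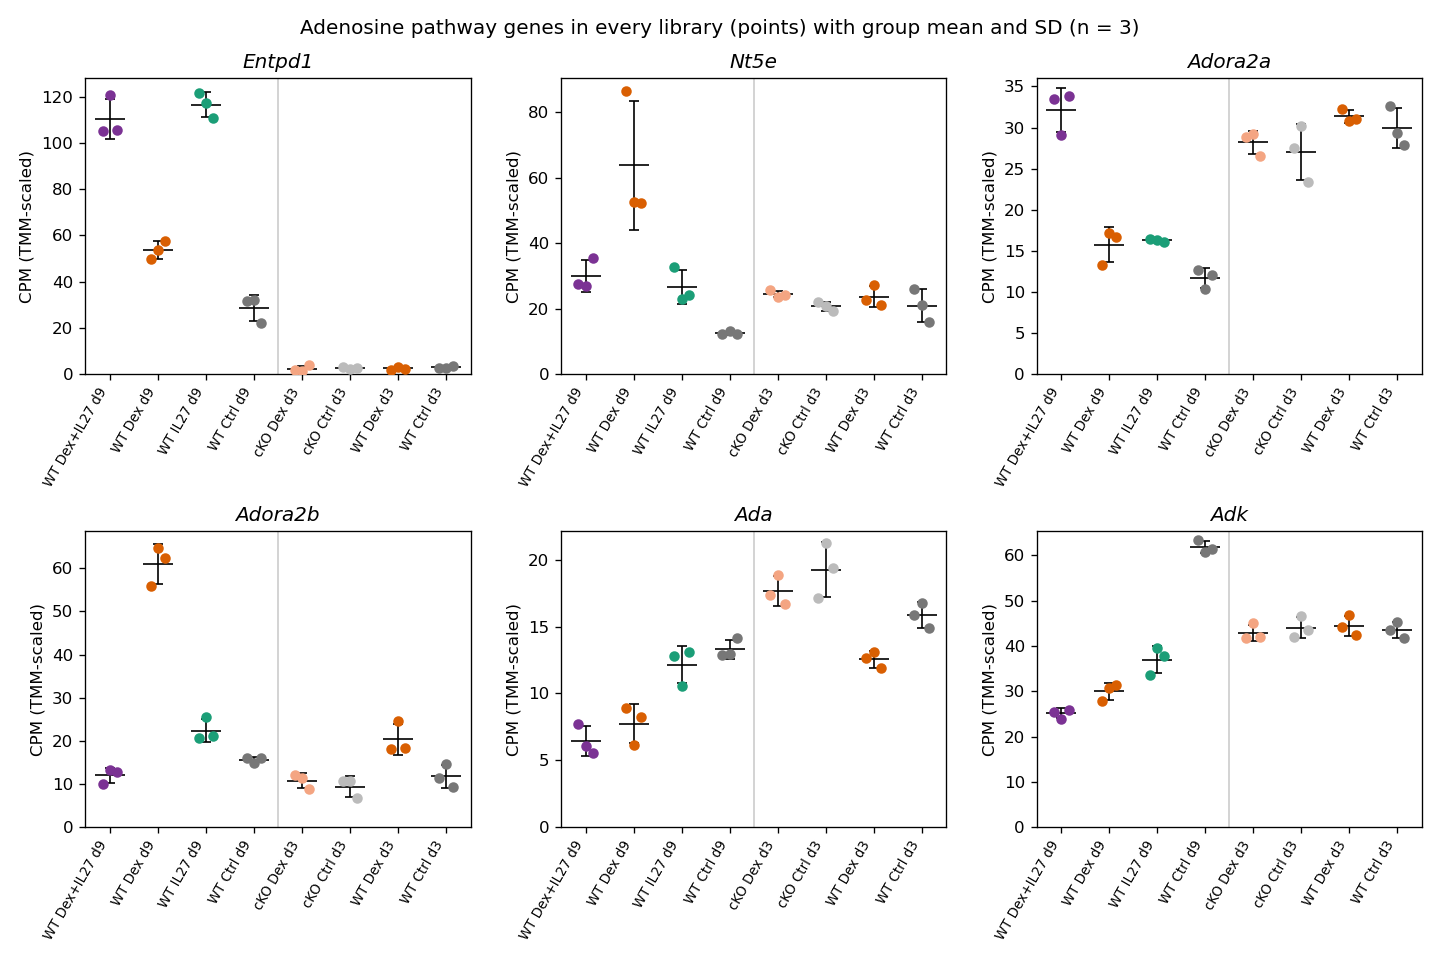
Level of each gene in each of the 24 libraries in CPM (points, 1 panel per gene, axis from 0; lines are group means with bars of ± 1 SD, n = 3). Entpd1 lies at or under 3.77 CPM in all 12 day 3 libraries and between 21.9 and 121 CPM at day 9, while Adora2b and Nt5e have their highest levels in the Dex libraries of day 9.

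Dex at day 9 raised both ectonucleotidases and both receptors and lowered both clearance enzymes, so that 4 members rose and 2 fell in a comparison in which 55.6% of 12320 genes passed the test, 28.2% upward and 27.4% downward. IL27 raised the same 4 and lowered Adk (57.4% of genes passed, 29.3% upward and 28.1% downward). Dex+IL27 against Ctrl raised 3 and lowered 3, with Adora2b now among those that fell (66.9% passed, 34.3% upward and 32.6% downward). Since most genes passed in these 3 comparisons, the number of members called says little by itself, and the sizes and directions are given gene by gene. The members' median change was 0.64 with Dex, 0.46 with IL27 and 0.42 with both, beside 0.03, 0.03 and 0.05 over all genes tested. The 3 comparisons share their Ctrl libraries. In bulk libraries such as these, fewer cells that express a gene and less RNA per cell cannot be told apart.

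**Figure D2:**
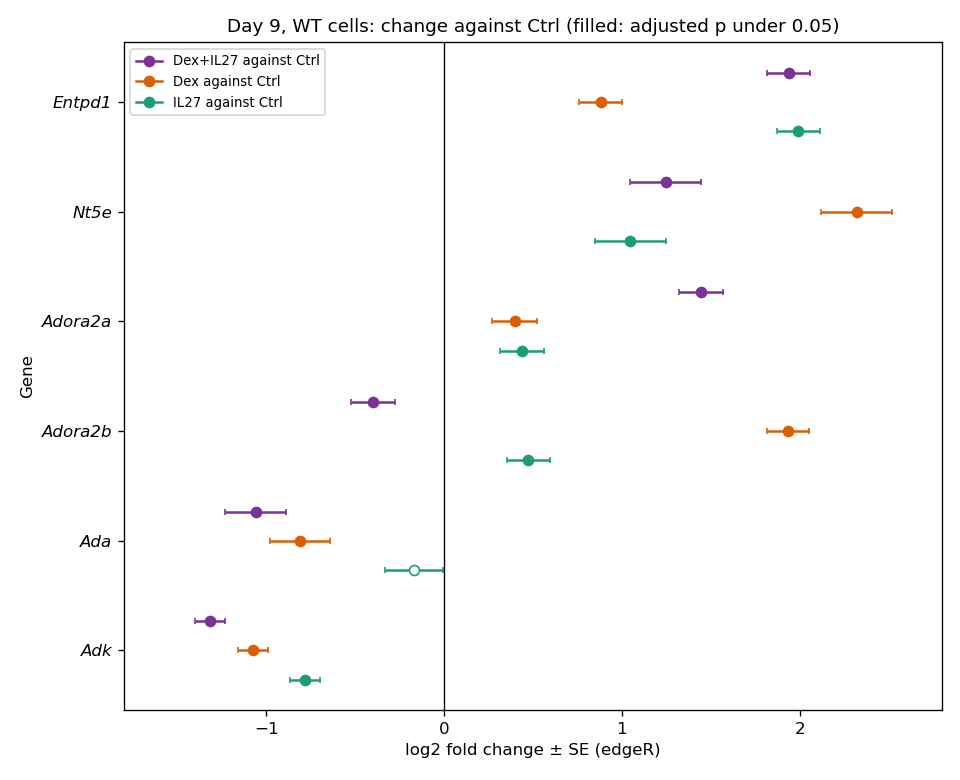
Log2 fold change of each gene at day 9 against the reference named in the key, with bars of ± 1 SE; filled points passed the test. Adora2b changed by 1.94 with Dex alone and by -0.40 with Dex+IL27.

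Entpd1 was strongly expressed with IL27, with or without Dex. It had 105, 120.5 and 106 CPM in the Dex+IL27 libraries, 49.7, 53.4 and 57.6 CPM in the Dex libraries, 121, 117 and 111 CPM in the IL27 libraries and 31.5, 32.1 and 21.9 CPM in the Ctrl libraries of day 9. The Dex+IL27 and IL27 libraries overlapped, and both groups lay wholly above Dex, which lay wholly above Ctrl. Against Ctrl, Entpd1 rose 3.83-fold with Dex+IL27 (1.94 ± 0.12, adjusted p = 3.3e-09), 1.84-fold with Dex (0.88 ± 0.12, adjusted p = 1.9e-05) and 3.98-fold with IL27 (1.99 ± 0.12, adjusted p = 1.2e-08). Adding IL27 to Dex raised it by a further 1.06 ± 0.12 (adjusted p = 2e-05). Adding Dex to IL27 gave a difference of -0.05 ± 0.11 that did not pass the test (adjusted p = 0.771).

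At day 3 Entpd1 was near the lower end of what was counted. Its 12 libraries held 23 to 70 estimated reads each, or 1.39 to 3.77 CPM. Dex changed it by -0.23 ± 0.36 in WT cells (adjusted p = 0.75) and by -0.22 ± 0.36 in cKO cells (adjusted p = 1.00), and at this depth the SE leaves a change of either sign possible. Restimulated Ctrl cells of day 9 had 28.5 ± 5.72 CPM, against 2.83 ± 0.535 CPM in WT Ctrl cells of day 3 (SD, n = 3 each), which is 10.1-fold higher (3.34 ± 0.22, adjusted p = 7.8e-12). Day, culture history and the sample series in the titles cannot be told apart in this comparison, in which 48.4% of 12666 genes passed (24.3% upward, 24.1% downward). Of the members 2 rose, 2 fell and 2 did not pass.

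Nt5e, the enzyme after Entpd1 in the cascade, was highest with Dex alone. It had 27.4, 26.9 and 35.5 CPM in the Dex+IL27 libraries, 86.7, 52.5 and 52.2 CPM in the Dex libraries, 32.6, 23.0 and 24.04 CPM in the IL27 libraries and 12.2, 13.1 and 12.2 CPM in the Ctrl libraries of day 9. All Dex libraries lay above all others, replicate 1 of Dex stood above the other two, the Dex+IL27 and IL27 libraries overlapped, and all treated libraries lay above Ctrl. Nt5e rose 5.00-fold with Dex (2.32 ± 0.20, adjusted p = 2.2e-07), 2.07-fold with IL27 (1.05 ± 0.20, adjusted p = 3.8e-04) and 2.37-fold with Dex+IL27 (1.25 ± 0.20, adjusted p = 5.4e-05). Adding IL27 to Dex lowered it 2.11-fold (-1.08 ± 0.19, adjusted p = 6.6e-04), while adding Dex to IL27 gave 0.20 ± 0.19 (adjusted p = 0.477). Of the members 2 rose and 3 fell in Dex+IL27 against Dex, where 32% of genes passed (14.9% upward, 17.1% downward). In Dex+IL27 against IL27 1 rose and 3 fell, where 26.1% of genes passed (11.7% upward, 14.3% downward).

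At day 3 Nt5e lay between 15.8 and 27.2 CPM in all 12 libraries and passed no test. Its change with Dex was 0.18 ± 0.14 in WT cells (adjusted p = 0.513) and 0.23 ± 0.14 in cKO cells (adjusted p = 1.00). It fell in Ctrl cells of day 9, with 12.5 ± 0.489 CPM against 20.9 ± 5.12 CPM in WT Ctrl cells of day 3 (-0.75 ± 0.19, adjusted p = 0.00219), the opposite direction to Entpd1.

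The balance of the pair, taken per length, differed between the groups. The ratio of Entpd1 to Nt5e in FPKM was 3.21 ± 0.649 in Dex+IL27, 0.767 ± 0.243 in Dex, 3.82 ± 0.592 in IL27 and 1.94 ± 0.357 in Ctrl cells of day 9. Every Dex library had more Nt5e than Entpd1 (highest ratio 0.943), and every other day 9 library had more Entpd1 than Nt5e (lowest ratio 1.53). At day 3 the group means of the ratio lay between 0.0787 and 0.123 (SD, n = 3 each; no test was run on the ratios).

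Adora2a rose most where both agents were given. It had 33.4, 29.1 and 33.9 CPM in the Dex+IL27 libraries, 13.3, 17.2 and 16.7 CPM in the Dex libraries, 16.4, 16.4 and 16.0 CPM in the IL27 libraries and 12.6, 10.3 and 12.1 CPM in the Ctrl libraries of day 9. The Dex+IL27 libraries lay above all others of that day, and replicate 2 lay within the range of the day 3 libraries, 23.4 to 32.6 CPM, with the other two just above it. The Dex and IL27 libraries overlapped and lay above Ctrl. Dex+IL27 raised it 2.72-fold over Ctrl (1.45 ± 0.12, adjusted p = 7.7e-08), by 1.05 ± 0.12 over Dex (adjusted p = 3.1e-05) and by 1.01 ± 0.12 over IL27 (adjusted p = 5e-05). IL27 alone raised it by 0.44 ± 0.12 (adjusted p = 0.00741). The rise with Dex alone, 0.40 ± 0.13 (adjusted p = 0.0142), ended without Ctrl replicate 2 (adjusted p = 0.0728), Dex replicate 2 (adjusted p = 0.0698) or Dex replicate 3 (adjusted p = 0.0516), and its adjusted p ranged from 0.00285 to 0.0728 over 16 alternatives.

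At day 3 neither Dex nor genotype changed Adora2a past the test. The differences were 0.07 ± 0.10 for WT Dex against WT Ctrl (adjusted p = 0.72) and -0.16 ± 0.10 for cKO Dex against WT Dex (adjusted p = 0.432). Ctrl cells of day 9 had 11.7 ± 1.21 CPM, against 29.9 ± 2.42 CPM in WT Ctrl cells of day 3, a fall of 2.56-fold (-1.36 ± 0.11, adjusted p = 6.2e-10).

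Adora2b rose with Dex, and its level was lower, not higher, when Dex was added to IL27. It had 9.90, 13.3 and 12.7 CPM in the Dex+IL27 libraries, 55.9, 64.8 and 62.3 CPM in the Dex libraries, 20.6, 25.4 and 21.0 CPM in the IL27 libraries and 16.1, 14.9 and 15.9 CPM in the Ctrl libraries of day 9. No 2 of these 4 groups overlapped. Dex raised it 3.82-fold over Ctrl (1.94 ± 0.12, adjusted p = 1.1e-08) and IL27 raised it 1.39-fold (0.48 ± 0.12, adjusted p = 0.00321). With both agents it was 5.04-fold lower than with Dex (-2.33 ± 0.12, adjusted p = 1.3e-08) and 1.83-fold lower than with IL27 (-0.87 ± 0.12, adjusted p = 1.6e-04). Dex+IL27 cells were also below Ctrl, by -0.40 ± 0.12 (adjusted p = 0.0101), a call that ended with all 24 libraries in 1 fit (adjusted p = 0.0549) and without Dex+IL27 replicate 1 (adjusted p = 0.059), in a range of 0.00195 to 0.059 over 16 alternatives.

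Adora2b was also the only member called with Dex at day 3, where 9.43% of 11967 genes passed in WT cells (4.93% upward, 4.5% downward). It had 18.1, 24.5 and 18.4 CPM in WT Dex libraries, against 11.5, 14.6 and 9.28 CPM in WT Ctrl libraries, with no overlap, and rose 1.72-fold (0.79 ± 0.19, adjusted p = 0.0148). The call ended without WT Ctrl replicate 3 (adjusted p = 0.0661), without WT Dex replicate 2 (adjusted p = 0.0881) and in limma on unfiltered FPKM (adjusted p = 0.0785); over 16 alternatives the adjusted p ranged from 5.5e-06 to 0.0881. In cKO cells it had 12.1, 11.3 and 8.88 CPM with Dex, against 10.8, 10.8 and 6.66 CPM without, and the groups overlapped (0.19 ± 0.20, adjusted p = 1.00).

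Set against WT Dex, cKO Dex cells had 1.90-fold less Adora2b (-0.92 ± 0.19, adjusted p = 0.00617). This was the one fall among the members in that comparison, beside the one rise, of Ada, where 6.9% of genes passed (3.63% upward, 3.28% downward). The call ended only in limma on unfiltered FPKM (adjusted p = 0.0577, in a range of 4.2e-08 to 0.0577 over 15 alternatives). Without Dex the genotypes differed by -0.33 ± 0.20 (adjusted p = 0.44), and no member passed in that comparison, with 2.36% of genes called (1.38% upward, 0.986% downward). The test of the difference between the WT and cKO responses to Dex gave 0.59 ± 0.28, which did not pass (adjusted p = 0.318). No member passed that test, which 2.95% of genes passed, 1.57% upward and 1.38% downward. A difference between the genotypes in the response of Adora2b is therefore not shown by these data. In cKO Dex against cKO Ctrl no gene passed in edgeR (0% of 11967). An unadjusted p under 0.05 was found for 399 genes, a smaller share than the 0.05 that tests with no change would give. DESeq2 called 0, limma on FPKM called 0, and edgeR without the low-count filter called 26. The 399 became 718 of 12134 genes without cKO Dex replicate 6, a larger share than 0.05, still with 0 genes passing. Without the low-count filter they became 668 of 18379, again a smaller share.

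**Figure D3:**
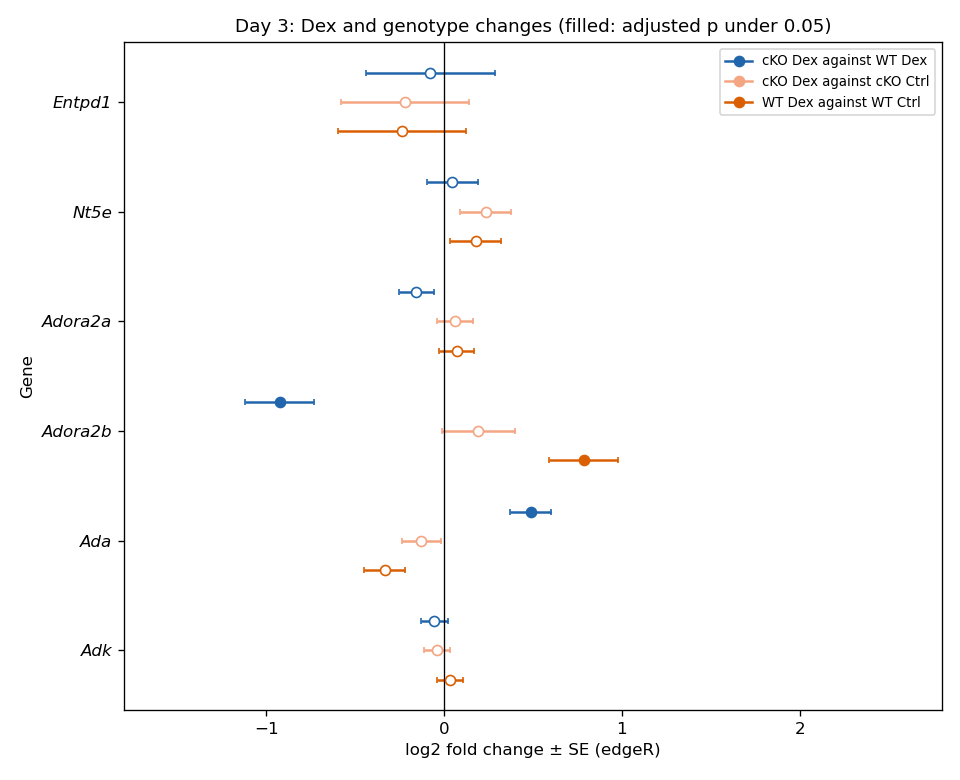
Log2 fold change of each gene at day 3 against the reference named in the key, with bars of ± 1 SE; filled points passed the test. Adora2b lies at 0.79 for WT Dex against WT Ctrl and at -0.92 for cKO Dex against WT Dex, and the remaining filled point is Ada at 0.49 for cKO Dex against WT Dex.

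The relative level of the 2 receptors, again per length, separated the Dex libraries of day 9 from all others. The ratio of Adora2b to Adora2a in FPKM was 0.517 ± 0.112 in Dex+IL27, 5.37 ± 0.363 in Dex, 1.89 ± 0.220 in IL27 and 1.85 ± 0.123 in Ctrl cells of day 9. The lowest ratio among the Dex libraries was 5.14 and the highest among the other day 9 libraries 2.14. At day 3 it was 0.522 ± 0.0585 in cKO Dex, 0.473 ± 0.0754 in cKO Ctrl, 0.894 ± 0.173 in WT Dex and 0.542 ± 0.124 in WT Ctrl (SD, n = 3 each). Adora2a was thus the more abundant receptor mRNA in Dex+IL27 cells and in most day 3 libraries, and Adora2b in the other 3 groups of day 9.

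**Figure D4:**
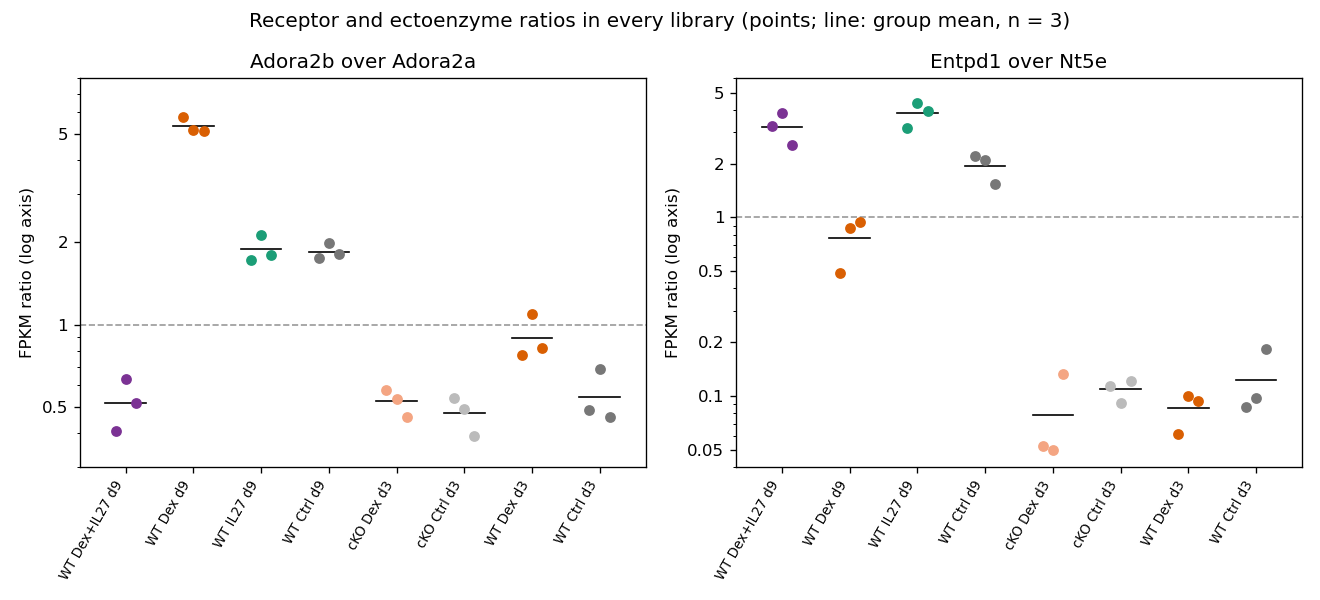
FPKM ratios of Adora2b to Adora2a (left) and of Entpd1 to Nt5e (right) in every library, on log axes, with the group mean as a line (n = 3) and a dashed line at a ratio of 1. The Dex libraries of day 9 have the highest receptor ratio (mean 5.37) and the lowest ectoenzyme ratio of that day (mean 0.767).

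Of the clearance enzymes, Ada and Adk both fell with Dex alone and with Dex+IL27, and with IL27 alone only Adk did. Ada had 7.75, 6.04 and 5.55 CPM in the Dex+IL27 libraries, 8.88, 6.14 and 8.23 CPM in the Dex libraries, 12.8, 10.6 and 13.1 CPM in the IL27 libraries and 12.9, 13.0 and 14.1 CPM in the Ctrl libraries of day 9. Both groups that received Dex lay below both that did not, and overlapped each other. Ada fell 1.75-fold with Dex (-0.81 ± 0.17, adjusted p = 9.1e-04) and 2.08-fold with Dex+IL27 (-1.06 ± 0.17, adjusted p = 6.2e-05), each against Ctrl. Against IL27 alone it fell by 0.89 ± 0.17 on the log2 scale when Dex was added (adjusted p = 0.0018). IL27 itself gave -0.17 ± 0.16 against Ctrl (adjusted p = 0.402) and -0.25 ± 0.18 on top of Dex (adjusted p = 0.314).

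Among cells given Dex at day 3, Ada was higher in cKO than in WT cells. It had 17.4, 18.9 and 16.7 CPM in cKO Dex libraries, against 12.6, 13.1 and 11.9 CPM in WT Dex libraries, with no overlap, and was 1.40-fold higher in cKO Dex (0.49 ± 0.11, adjusted p = 0.0136). The call ended without WT Dex replicate 3 (adjusted p = 0.0607) and without cKO Dex replicate 5 (adjusted p = 0.073), in a range of 0.00493 to 0.073 over 15 alternatives. In cKO Ctrl libraries Ada had 17.1, 21.3 and 19.4 CPM, against 15.9, 16.8 and 14.9 CPM in WT Ctrl libraries. These also did not overlap, but the difference did not pass (0.28 ± 0.11, adjusted p = 0.196). In cKO cells Dex gave -0.13 ± 0.11, which did not pass. The difference between the WT and cKO responses of Ada to Dex was -0.21 ± 0.16 (adjusted p = 0.596). A genotype difference in Ada that depends on Dex is therefore not shown. WT Dex libraries all lay below WT Ctrl libraries, but the difference of -0.33 ± 0.12 did not pass (adjusted p = 0.0826); limma on log2 of FPKM did call it, with adjusted p = 0.0342 at a pseudocount of 1 and 0.031 at 0.1, in a range of 0.031 to 0.239 over 16 alternatives.

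Adk, which returns adenosine to AMP, fell in each treated group of day 9. It had 25.5, 23.8 and 25.9 CPM in the Dex+IL27 libraries, 27.8, 30.7 and 31.5 CPM in the Dex libraries, 33.6, 39.5 and 37.9 CPM in the IL27 libraries and 63.3, 60.8 and 61.5 CPM in the Ctrl libraries of day 9. These 4 groups did not overlap. Against Ctrl the fall was 2.49-fold with Dex+IL27 (-1.31 ± 0.09, adjusted p = 5.5e-09), 2.10-fold with Dex (-1.07 ± 0.09, adjusted p = 1.2e-07) and 1.72-fold with IL27 (-0.78 ± 0.08, adjusted p = 1.9e-06). Dex+IL27 was below IL27 by -0.53 ± 0.09 (adjusted p = 5.1e-04). It was below Dex by -0.24 ± 0.09 (adjusted p = 0.0477), and that call ended in 8 of 16 alternatives, among them each of the 3 Dex+IL27 libraries and Dex replicates 2 and 3 left out, with adjusted p between 0.0126 and 0.147 over all 16.

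At day 3 Adk was the steadiest of the 6 genes. All 12 libraries lay between 41.7 and 46.9 CPM, and the 4 comparisons of groups gave between -0.05 and 0.03 with an SE of 0.07. In Ctrl cells it was higher at day 9, with 61.9 ± 1.32 CPM against 43.5 ± 1.69 CPM in WT Ctrl cells of day 3 (0.51 ± 0.07, adjusted p = 4.8e-06). Ada did not pass in the same comparison (-0.25 ± 0.13, adjusted p = 0.124), nor did Adora2b (0.40 ± 0.18, adjusted p = 0.0619), although every Ctrl library of day 9 had more Adora2b than every WT Ctrl library of day 3.

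For 5 of the 6 genes the change with both agents differed from the sum of the changes with each, where 28.5% of 12320 genes did (13.7% above the sum, 14.7% below it). 2 members lay above their sum and 3 below. Adora2b had the largest departure, -2.81 ± 0.17 (adjusted p = 1.6e-07), with the single changes adding up to 2.41 and the observed change at -0.40; it ranked 3rd of all genes by p. Nt5e fell short of its sum of 3.37 by 2.12 ± 0.27 (adjusted p = 8.6e-05), and Entpd1 of its sum of 2.87 by 0.94 ± 0.16 (adjusted p = 8.8e-04). Adora2a exceeded its sum of 0.84 by 0.61 ± 0.17 (adjusted p = 0.017). The sum for Adk was -1.85 and the observed change -1.31, a difference of 0.54 ± 0.12 (adjusted p = 0.00451). Ada was the exception, with a sum of -0.98, an observed change of -1.06 and a departure of -0.08 ± 0.24 (adjusted p = 0.84).

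**Figure D5:**
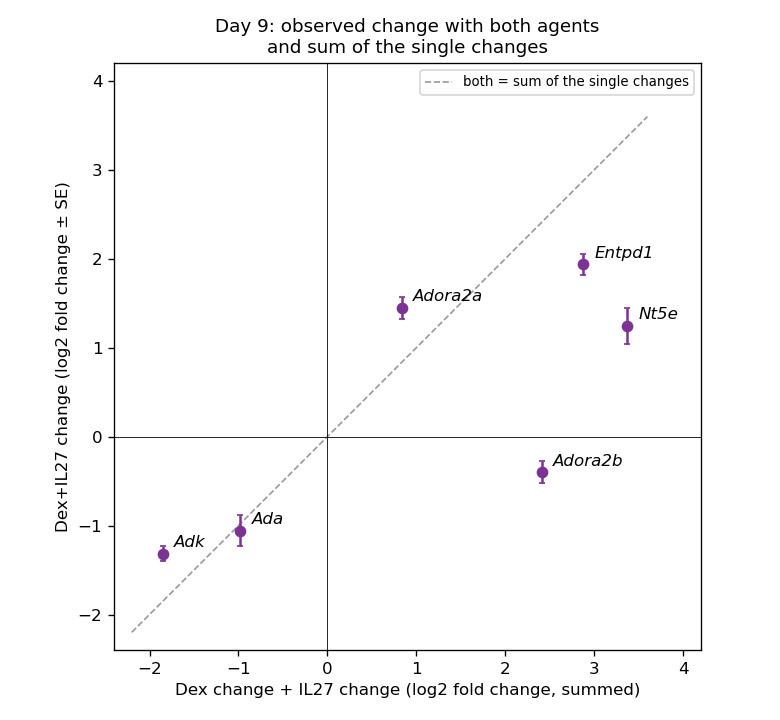
Sum of the log2 changes with Dex alone and IL27 alone (horizontal) against the log2 change with both (vertical) for each gene at day 9; on the diagonal the 2 are equal. Adora2b (sum 2.41, both -0.40) and Nt5e (sum 3.37, both 1.25) lie farthest below the line, and Adora2a (sum 0.84, both 1.45) lies above it.

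The Dex response of WT cells was compared between the days in 1 fit of all libraries, in which 39.6% of 12666 genes differed (20.4% upward, 19.2% downward). Of the members 3 had a higher log2 change with Dex at day 9, 1 had a lower one and 2 did not pass. The response was larger at day 9 for Nt5e by 2.18 ± 0.26 (adjusted p = 4.3e-07), for Adora2b by 1.18 ± 0.24 (adjusted p = 3.3e-04) and for Entpd1 by 1.15 ± 0.34 (adjusted p = 0.0079). For Adk the day 9 change minus that of day 3 was -1.07 ± 0.11 (adjusted p = 3.7e-08). Dex changed Adk by 0.03 ± 0.07 at day 3 and lowered it at day 9 (-1.07 ± 0.09). Adora2a (0.36 ± 0.16, adjusted p = 0.0724) and Ada (-0.44 ± 0.20, adjusted p = 0.0747) did not pass. The days also differ in the length of exposure and in a second stimulation, which cannot be told apart.

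A list of 67 further genes of purine metabolism and adenosine signalling put the 6 in context. All 67 were in the tables, and 54 could be tested at day 3 and 56 at day 9. With Dex at day 3, 5 rose and 3 fell in WT cells (14.8% of those tested, against 9.43% of all genes), and 0 did in cKO cells. At day 9, 16 rose and 21 fell with Dex (66.1%, against 55.6% of all genes tested), 20 rose and 21 fell with IL27 (73.2%, against 57.4%) and 19 rose and 21 fell with Dex+IL27 (71.4%, against 66.9%). The list's median change in these 3 comparisons lay between -0.06 and 0.08.

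Among the intracellular purine enzymes, which salvage or degrade nucleotides, falls outnumbered rises. Of 16 tested, 2 rose and 10 fell with Dex, 0 rose and 10 fell with IL27, and 3 rose and 11 fell with Dex+IL27. Of all genes tested, 28.2% rose and 27.4% fell with Dex, 29.3% rose and 28.1% fell with IL27, and 34.3% rose and 32.6% fell with Dex+IL27. Pnp2, a purine nucleoside phosphorylase downstream of Ada, had 0.822 ± 0.200 CPM in Dex+IL27, 2.56 ± 0.836 CPM in Dex and 6.85 ± 1.13 CPM in Ctrl cells (-3.06 ± 0.31, adjusted p = 5.3e-07 with both; -1.45 ± 0.28, adjusted p = 4.1e-04 with Dex). Pnp2 overlaps Pnp and is nearly the same in sequence, so the split of reads between the pair is uncertain. Of 5 nucleoside transporters, 0 rose and 3 fell with Dex, and 1 rose and 3 fell both with IL27 and with Dex+IL27, which on 5 genes is too few to set against those shares.

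On the signalling side, 16 genes for stimulatory G proteins, adenylate cyclases and cyclic AMP effectors were tested. At day 9, 9 rose and 3 fell with Dex, 9 rose and 4 fell with IL27, and 8 rose and 3 fell with both. Of all genes tested, 28.2% rose and 27.4% fell with Dex, 29.3% and 28.1% with IL27, and 34.3% and 32.6% with both. In either direction 55.6%, 57.4% and 66.9% of all genes passed. Gnal, a stimulatory G protein alpha subunit, had 16.6 ± 1.86 CPM in Dex+IL27, 46.0 ± 2.71 CPM in Dex and 11.2 ± 1.57 CPM in Ctrl cells; it rose with Dex (2.00 ± 0.13, adjusted p = 1.8e-08) and was lower with both than with Dex (-1.46 ± 0.13, adjusted p = 1.9e-06). It also rose in WT cells at day 3, with 31.3 ± 3.94 CPM in WT Dex and 17.1 ± 4.39 CPM in WT Ctrl (0.88 ± 0.15, adjusted p = 9.9e-04). The WT response of Gnal at day 3 differed from the cKO response (0.93 ± 0.22, adjusted p = 0.0242). Rapgef3, an exchange factor activated by cyclic AMP, had 8.80 ± 3.05 CPM in Dex+IL27 and 0.431 ± 0.210 CPM in Ctrl cells (4.33 ± 0.42, adjusted p = 2.9e-07). Its levels with 1 agent lay between these, at 3.13 ± 0.210 CPM in Dex and 2.93 ± 1.34 CPM in IL27. Crem, a transcription factor induced by cyclic AMP, had 180 ± 7.47 CPM in WT Dex and 113 ± 7.70 CPM in WT Ctrl at day 3 (0.68 ± 0.06, adjusted p = 8.2e-07). This WT response of Crem also differed from the cKO response (0.73 ± 0.09, adjusted p = 5.9e-05).

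Ectoenzymes and receptors outside the 6 also moved. Cd38, which consumes extracellular NAD, fell with Dex in WT cells at day 3, with 2.43 ± 0.557 CPM in WT Dex and 7.95 ± 1.61 CPM in WT Ctrl (-1.69 ± 0.21, adjusted p = 3.1e-05), and this response differed from that of cKO cells (-1.64 ± 0.28, adjusted p = 0.0025). Acpp, a phosphatase that can act on AMP as Nt5e does, had 5.42 ± 0.291 CPM in Dex+IL27, 1.21 ± 0.772 CPM in Dex and 0.974 ± 0.613 CPM in Ctrl cells (2.46 ± 0.48, adjusted p = 3.3e-04 with both against Ctrl). In IL27 cells Acpp had 2.61 ± 1.10 CPM. Adora3, another adenosine receptor gene, had 1.51 ± 0.756 CPM in Dex+IL27, 10.7 ± 2.30 CPM in IL27 and 2.48 ± 0.295 CPM in Ctrl cells (2.06 ± 0.31, adjusted p = 4e-05 with IL27). Like Adora2b it was lower with both agents than with IL27 (-2.79 ± 0.33, adjusted p = 4.1e-05), but its reads cannot be told apart from those of Tmigd3, which overlaps it on the same strand. Adora1 had at most 4 estimated reads over the 3 libraries of any group. P2rx4, an ATP-gated channel, rose with IL27 to 44.2 ± 3.00 CPM, against 16.3 ± 2.41 CPM in Ctrl cells (1.40 ± 0.11, adjusted p = 1.4e-07). Its level was also above Ctrl without IL27, at 34.7 ± 3.01 CPM in Dex, and was 35.6 ± 2.81 CPM in Dex+IL27. The change with both agents lay below the sum of the single changes (-1.35 ± 0.16, adjusted p = 4.4e-05). Gnal also overlaps other genes on both strands (Chmp1b and Mppe1), and without a stated strand these reads cannot be assigned with certainty.

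Over the 24 libraries the genes whose log2(CPM + 1) followed each member most closely, among 9304 genes, differed from member to member. Entpd1 was closest to Tmem159 (Pearson r = 0.991), S100a10 (0.984) and Ltb4r1 (0.983), and Nt5e to Nrn1 (0.940), Vwa5a (0.907) and Dhrs7 (0.904). Adora2a was closest to Trim26 (0.920), Cd24a (0.913) and Sesn1 (0.880), and Adora2b to Maged2 (0.930), Mapkapk2 (0.878) and Cytip (0.856). Ada was closest to Adh5 (0.927), Mrps28 (0.924) and Ndufb2 (0.923), and Adk to Chchd2 (0.980), Cycs (0.979) and Mrpl12 (0.977). These are descriptions, and the libraries of a group share treatment, day and culture.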

How the data were processed

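Per the labels' protocols, the 24 RNA libraries came from 1000 cells each, were amplified for 11 cycles in a SMART-Seq2 workflow and were sequenced in pairs of 38 nt reads. The authors deposited estimated counts per gene, named as RSEM gene-level output, with no normalization, and FPKM values that, per the file name, were scaled by TMM. The submitters' processing notes name TopHat, RSEM, DESeq and mm9 without roles; whether counting used strand is not given in the sources used here. Reads carry no molecular identifiers.

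Rounded counts were tested in edgeR 4.0.16 under R 4.3.3 by its quasi-likelihood F-test, two-sided, with TMM scaling, a prior count of 0.125 and filterByExpr (minimum count 10, minimum total 15). Each day's 12 libraries entered 1 fit, and all 24 did for comparisons between days, and p-values of 13 comparisons were adjusted by Benjamini-Hochberg over all genes of a fit (11967 at day 3, 12320 at day 9, 12666 over both). Groups came from the sample labels. The fits were tested on simulated data.

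Alternatives were the size factors of DESeq2 1.42.0 in edgeR, its Wald test, no filter on low counts, limma 3.58.1 on log2 of FPKM (pseudocount 1 or 0.1, genes whose mean reached 1 FPKM in any group, or unfiltered), a fit of the compared groups alone, a fit of all libraries, a replicate block, library totals only, and each library left out. The 6 genes, the 67 further genes and the marker lists were chosen with earlier results of these data known. Of the 67, up to 4 called genes per comparison with the largest changes and a mean of at least 5 CPM in a group could be named. Adora1 lies outside that rule and was named after its values were seen. Promoter windows came from RefSeq on GRCm38.p6 and were not joined to the mm9 data. Overlapping genes were looked up in the GENCODE annotation of GRCm38, where no other protein-coding gene overlaps any of the 6.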

Additional observations from a re-analysis of the deposited data

Results flagged for a closer look

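At day 9 the Dex response differed with and without IL27 for 5 of the 6 genes, by the interaction test of edgeR with Benjamini-Hochberg adjustment. Of all 12320 genes tested, 28.5% passed this test. With IL27 minus without it, the response differed by -0.94 for Entpd1, -2.12 for Nt5e, 0.61 for Adora2a, -2.81 for Adora2b and 0.54 for Adk on the log2 scale. For Adora2b the response to Dex was of opposite sign with IL27 (-0.87) and without it (1.94).

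The Dex response of WT cells also differed between day 9 and day 3 for 4 genes, by the same test in the fit of all 24 libraries. The day 9 response minus that of day 3 was 1.15 for Entpd1, 2.18 for Nt5e, 1.18 for Adora2b and -1.07 for Adk. Entpd1 held at most 70 estimated reads in a day 3 library, and day, length of exposure and restimulation cannot be told apart.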

How the results depend on the processing

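Of 78 results of the 6 genes, 42 passed the test, and 36 of these kept their call and sign under every alternative; the other 6 are named beside their values in the report. With Dex in WT cells at day 3, limma on FPKM called 2 genes at a pseudocount of 1 or 0.1 and 0 without its filter, against 1; leaving out a library gave 0 to 1. For cKO Dex against WT Dex, limma without a filter called 1 gene, against 2, and leaving out a library gave 1 to 2. Adora2b in Ctrl cells of day 9 against day 3 passed in 6 of 15 alternatives. In the day 9 minus day 3 response, Ada passed in 4 of 21 alternatives and Adora2a in 1 of 21. The cause was not tested.

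Signs changed only in results that did not pass. For cKO Ctrl against WT Ctrl, Nt5e gave 0.0046 (limma, pseudocount 1, filtered or not) and 0.0091 (pseudocount 0.1), and Adk -0.023 with library totals. For the WT minus cKO response, Entpd1 gave 0.0042 in limma without a filter and 0.063 with the replicate block, and Adora2a -0.0063 (limma, filtered or not), -0.0076 (pseudocount 0.1) and -0.014 (library totals). With single libraries left out, the ranges were -0.0074 to 0.069 for Adk with Dex in WT cells at day 3. In cKO cells they were -0.82 to 0.027 for Entpd1, -0.034 to 0.15 for Adora2a, -0.0052 to 0.32 for Adora2b and -0.075 to 0.0025 for Adk. For cKO Ctrl against WT Ctrl they were -0.20 to 0.063 for Entpd1, -0.18 to 0.18 for Nt5e and -0.026 to 0.053 for Adk, and for cKO Dex against WT Dex -0.68 to 0.19 for Entpd1 and -0.029 to 0.16 for Nt5e. For the WT minus cKO response they were -0.28 to 0.59 for Entpd1, -0.22 to 0.13 for Nt5e and -0.078 to 0.11 for Adora2a, and for the Dex by IL27 interaction of Ada -0.24 to 0.029.

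The labels do not say whether equal replicate numbers pair samples, and the correlations do not decide it. Deviations of same-numbered libraries correlated from -0.022 to 0.18 at day 3 and from -0.18 to 0.30 at day 9. At day 3 the same-numbered cKO pairs gave 0.098, 0.039 and 0.18, and the WT pairs -0.010, -0.022 and 0.0080. 11 of 36 tries at day 9 and 6 of 12 at day 3 matched a library best to its own number. Each try chose among the 3 libraries of another group, so some matches arise without pairing. With the replicate block, Adk in Dex+IL27 against Dex no longer passed (adjusted p = 0.0612). Adora2b in Ctrl cells of day 9 against day 3 did pass with it (adjusted p = 0.0112). Over all genes the block gave 1347 calls, against 1129, in WT Dex against WT Ctrl of day 3. For the WT minus cKO response it gave 526, against 353. cKO and WT libraries share no numbers.

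Over all genes, cKO Ctrl against WT Ctrl called 283, against 793 without the filter, 541 in DESeq2, 101 in limma without a filter, 129 with all 24 libraries and 63 to 177 with WT Ctrl replicate 1 or 2 or any cKO Ctrl library left out. The WT minus cKO response called 353, against 765, 553, 185 and 213 in the same 4 alternatives and 224 to 235 without WT Dex replicate 3 or WT Ctrl replicate 2. WT Dex against WT Ctrl called 1129, and 691 to 722 without WT Dex replicate 3 or WT Ctrl replicate 2. For cKO Dex against WT Dex 826 were called, and 484 to 534 without WT Dex replicate 1 or 2 or cKO Dex replicate 4 or 5. Some omissions raised the counts. Without cKO Dex replicate 6, cKO Dex against WT Dex called 1186 and the WT minus cKO response 479. Without WT Ctrl replicate 3, cKO Ctrl against WT Ctrl called 364. With library totals only, the median of all genes in Dex+IL27 against Ctrl was -0.07, against 0.05, and the share of calls that were higher was 35.3% against 58.3% for cKO Ctrl against WT Ctrl, 34.6% against 46.5% for Dex+IL27 against Dex, and 33.6% against 45% for Dex+IL27 against IL27. Reads of Entpd1 at day 3 limit what can be said of it there.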
